A study of Mus musculus with 12 samples.

Results

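The genes of MHC class II presentation were examined in tumor-infiltrating myeloid-derived suppressor cells (MDSCs), immature myeloid cells that accumulate in tumors and restrain T cells. The set was given by gene symbol, not by measured values, and holds 10 of the 24346 symbols in each library: H2-Aa, H2-Ab1, H2-Eb1, Cd74, Ciita, H2-DMa, H2-DMb1, H2-DMb2, Cd86 and Cd80. All 10 were found in the 12 libraries, and none was at 0 in any of them. RNA-seq was performed on M-MDSCs, the monocytic subset (CD11b+, Ly-6C high, Ly-6G-), and on PMN-MDSCs, the polymorphonuclear subset (CD11b+, Ly-6C intermediate, Ly-6G+), both isolated by FACS from tumors of wild-type mice. There were 6 groups of 2 libraries each, M or PMN cells under Vehicle, MS275 or CXD101. MS275 (entinostat) and CXD101 inhibit the class I histone deacetylases HDAC1-3. The mice were female C57BL/6J of 6 to 8 weeks carrying orthotopic tumors of Hepa 1-6, a mouse hepatoma line. For the M-MDSC groups, both drugs were injected intraperitoneally at 5 mg/kg daily for 10 days and cells were collected on day 21. The dose and schedule of the PMN-MDSC groups are not given in the sources used here. All groups, Vehicle included, came from tumor-bearing mice, so no value refers to cells of a healthy mouse.

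MHC class II molecules are pairs of an alpha and a beta chain that carry peptides of ingested proteins to the cell surface, where CD4+ T cells read them. In the mouse, H2-Aa and H2-Ab1 encode the chains of I-A, and H2-Eb1 the beta chain of I-E. C57BL/6 mice have no working H2-Ea gene and so form no I-E. Cd74 encodes the invariant chain, which blocks the peptide groove until proteases remove it. H2-DM, made of H2-DMa with either H2-DMb1 or H2-DMb2, then exchanges the remaining fragment for antigenic peptides, and H2-DO, made of H2-Oa and H2-Ob, restrains H2-DM. Ciita encodes the transactivator of this gene set, which is recruited by factors bound to the X and Y boxes of the promoters. Cd80 and Cd86 encode the ligands of CD28 and CTLA-4 that give T cells their costimulatory or inhibitory signal. Dendritic cells, macrophages and B cells are the main class II expressing cells, and neutrophils have little at rest.

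The X and Y boxes were located in the promoters, since they are the sequence that most of these genes share. Of the 10 genes, 6 had a promoter sequence in the RefSeq set used here (GRCm38.p6, 250 bases before and 50 after the start): H2-Aa, H2-Eb1, H2-DMa, H2-DMb1, H2-DMb2 and Cd80. The letters TGATTGG (Y box), AACNGATG (the X1 part of the X box) and TGACGTCA (its X2 part) were searched on both strands, and they were chosen after the sequences had been seen. The Y box letters were found in H2-Aa, H2-Eb1, H2-DMb1 and H2-DMb2, and in 7.80% of all 32544 promoters. In H2-Eb1, H2-DMb1 and H2-DMb2 the X1 letters preceded them, starting 28, 29 and 29 bases upstream, respectively. This arrangement (starts within 40 bases) was held by 7 genes, 0.0215% of the promoters, and H2-Eb2 was also among them. In H2-Aa the X1 letters had no match, and the X2 letters, a different element found in 1.80% of promoters, lay upstream of the Y box. The windows are shown 5′ to 3′ on the strand of the gene, with the matched letters in capitals. The H2-Eb1 window lies at chr17:34305774-34305815 (plus strand), the H2-DMb2 window at chr17:34145124-34145166 (plus strand) and the H2-Aa window at chr17:34287864-34287905 (minus strand). All of these windows lie upstream of the RefSeq starts used here and outside annotated UTRs. The H2-DMb2 window lies inside the gene as annotated by GENCODE, which starts at 34143307.
H2-Eb1: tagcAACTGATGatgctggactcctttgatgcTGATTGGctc
H2-DMb2: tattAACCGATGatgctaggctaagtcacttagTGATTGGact
H2-Aa: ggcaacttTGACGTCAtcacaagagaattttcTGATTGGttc
None of these letters was found in the windows of H2-DMa and Cd80. These windows begin at 34122582 and 34125268 for H2-DMa and at 38458683 for Cd80, while GENCODE starts the genes at 34119541 and 38455561. Boxes near another start would thus have been missed. These matches are a description of the sequence, and binding was not measured. H2-DMa, H2-DMb2, H2-DMb1, H2-Ab1, H2-Aa and H2-Eb1 lie together on chromosome 17 between 34119541 and 34316674 (GENCODE, GRCm38), and Ciita, Cd86 and Cd80 on chromosome 16.

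Expression was given as FPKM, a read count divided by transcript length and library size. The FPKM values summed to 564078 to 596407 in the M-MDSC and 656932 to 860841 in the PMN-MDSC libraries. The FPKM that 1 read is worth, read off the lowest values with the length of each transcript, put the depth at about 8430000 to 10700000 reads per M-MDSC library and 7090000 to 8140000 per PMN-MDSC library. Markers of the sorted subsets followed the labels in part. Monocyte markers summed to 1474 to 2589 FPKM in M-MDSCs, to 517 and 578 in PMN Vehicle and to 1476 to 1734 in treated PMN-MDSCs. Not all of them rose there. Under MS275 in PMN-MDSCs, Ly6c2 and Ly6c1 changed by 1.71 and 2.28 on the log2(FPKM + 1) scale, but Cx3cr1, Ccr2 and Fcgr1 by −0.89, −0.35 and −0.28. Under CXD101 the 5 directions were the same. Neutrophil markers summed to 68110 to 268440 FPKM in PMN-MDSCs against 10688 to 25572 in M-MDSCs. In PMN-MDSCs, the share of the FPKM sum taken by S100a8 and S100a9 was 10.2% and 13.7% under Vehicle and 27.3% to 30.9% under the inhibitors. These neutrophil transcripts thus took up a larger part of the treated PMN-MDSC libraries, and the part of this shift in the class II results was not tested.

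Differences were tested with limma on log2(FPKM + 1), and a gene was called at a Benjamini-Hochberg adjusted p-value under 0.05 over all genes tested and a fold change above 1.5. Under MS275, 1 gene of the set was higher and 2 were lower of 9 tested in M-MDSCs, where 10.1% of all 11078 genes tested were called higher and 7.32% lower. Under CXD101, 1 was higher and 4 were lower of 9, against 5.14% and 3.0% of all genes. Between the drugs, 1 was higher and 0 were lower under MS275 than under CXD101 in M-MDSCs (all genes, 3.22% and 1.17%). In PMN-MDSCs, 0 of 10 were higher and 7 were lower under MS275, where 14.6% and 14.2% of 11184 genes were called. Under CXD101, 0 were higher and 5 were lower in PMN-MDSCs (all genes, 11.9% and 9.54%), and 0 were called either way between the drugs there (0.465% and 0.340%), where 0 were higher and 5 were lower under MS275 at an unadjusted limma p under 0.05. Both counts called lower against Vehicle, 7 and 5, include Ciita, which reached the minimum through the Vehicle libraries and 1 CXD101 library. Such an entry favours a lower call. Under Vehicle, 7 of 10 were higher and 0 were lower in PMN-MDSCs than in M-MDSCs, against 17.2% and 16.8% of 11662 genes. These 7 include Ciita, which entered this model through PMN-MDSC libraries alone. In the test of whether the responses of the subsets differed, 0 were higher and 5 were lower for MS275 (all genes, 8.65% and 9.48%), and 0 were higher and 1 was lower for CXD101 (7.31% and 6.59%). The 5 include Ciita, with the same limit. The median log2 fold change of the tested genes of the set was −0.27 and −0.49 in M-MDSCs and −1.07 and −0.58 in PMN-MDSCs for MS275 and CXD101, respectively. The median of all genes tested was −0.06 and −0.02 in M-MDSCs and −0.03 in PMN-MDSCs under either drug. Both drugs were compared with the same Vehicle libraries of a subset, so their values are set side by side and not counted as separate evidence.

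**Figure D1:**
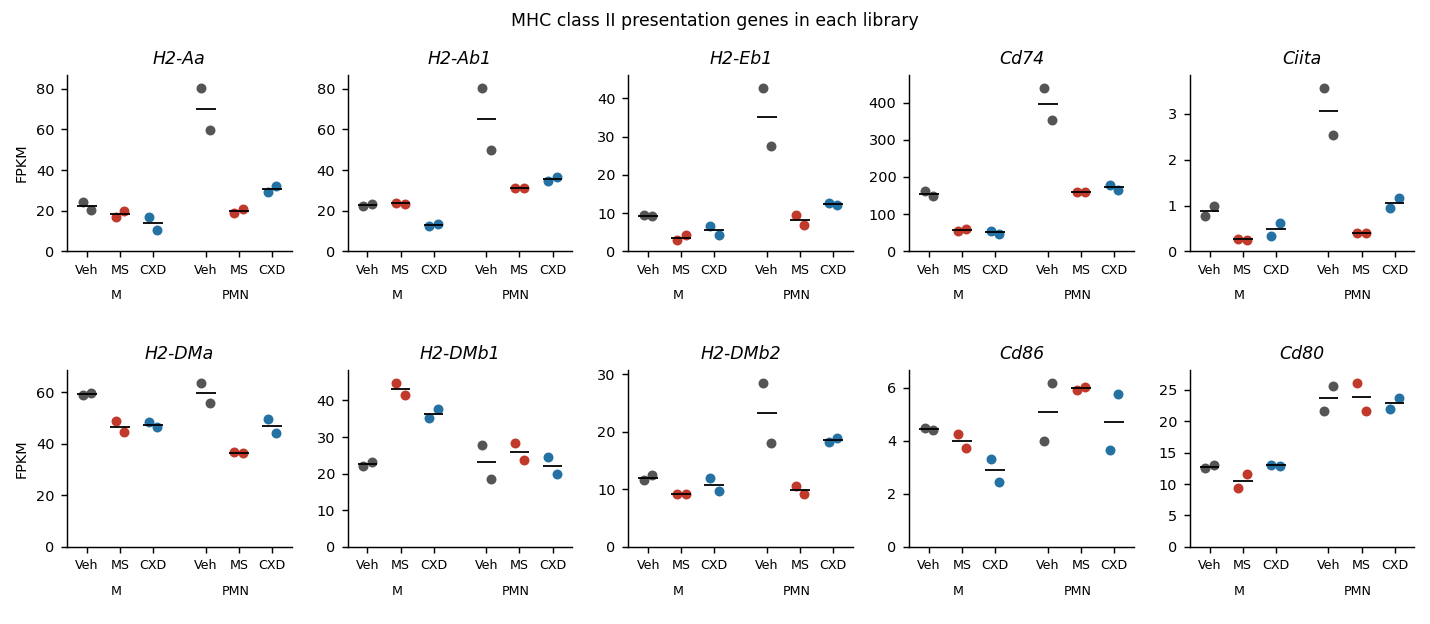
FPKM (y axis, linear, from 0) of the 10 genes in M-MDSCs (M) and PMN-MDSCs (PMN) under Vehicle (Veh), MS275 (MS) and CXD101 (CXD). Points are libraries, 2 per group, and bars are group means. The PMN Vehicle libraries are the highest for H2-Aa, H2-Ab1, H2-Eb1, Cd74 and Ciita, and H2-DMb1 is highest in the M-MDSCs of treated mice.

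The classical class II chains were transcribed in both subsets and were highest in PMN-MDSCs of Vehicle mice. H2-Aa, the I-A alpha chain, was at 24.3 and 20.3 FPKM under Vehicle, 16.7 and 19.8 under MS275 and 17.0 and 10.6 under CXD101 in M-MDSCs. The PMN-MDSC libraries had H2-Aa at 80.6 and 59.7 under Vehicle, 18.9 and 20.7 under MS275 and 29.3 and 31.96 under CXD101. Both treated groups of either subset lay below its Vehicle libraries, and after MS275 the PMN-MDSC libraries lay within the range of M-MDSCs. The log2 fold change of H2-Aa in PMN-MDSCs was −1.76 ± 0.14 (SE) under MS275 and −1.15 ± 0.14 under CXD101 (limma, adjusted p = 4.46e-05 and 0.000461). In M-MDSCs it was −0.27 ± 0.19 under MS275, which did not pass (adjusted p = 0.279), and −0.68 ± 0.19 under CXD101, which did (limma, adjusted p = 0.0357). This last call rested on single libraries, since it was lost without M CXD101 replicate 2 (−0.36), M Vehicle replicate 1 (−0.56) or M Vehicle replicate 2 (−0.81), and also without the filter on low values, without the intensity trend and under quantile normalization. Between the drugs, MS275 minus CXD101 was 0.41 (95% interval −0.03 to 0.85) for H2-Aa in M-MDSCs, where it passed without M CXD101 replicate 1 (0.73). In PMN-MDSCs it was −0.61 ± 0.14, with adjusted p = 0.0950 by limma in the model of 6 libraries and 0.0247 with only the 4 libraries compared.

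H2-Ab1, the I-A beta chain, differed between the drugs in M-MDSCs. It was at 22.5 and 23.1 FPKM under Vehicle, 23.7 and 23.4 under MS275 and 12.5 and 13.3 under CXD101. The MS275 libraries lay beside those of Vehicle, and both CXD101 libraries lay below all others. The log2 fold change was 0.05 ± 0.07 under MS275 (95% interval −0.12 to 0.21) and −0.78 ± 0.07 under CXD101, and the direct difference, MS275 minus CXD101, was 0.83 ± 0.07 (limma, adjusted p = 0.000610). In PMN-MDSCs, H2-Ab1 was at 80.5 and 50.03 under Vehicle, 31.3 and 31.2 under MS275 and 34.4 and 36.8 under CXD101. It fell there under both drugs, by 1.001 ± 0.19 and by 0.82 ± 0.19 on the log2 scale (limma, adjusted p = 0.00282 and 0.00914), and MS275 minus CXD101 came to −0.18 (95% interval −0.61 to 0.25). The Vehicle libraries differed from each other, and without PMN Vehicle replicate 1 the change was −0.66 under MS275 and −0.48 under CXD101, the latter no longer called. Without PMN CXD101 replicate 1, the CXD101 value was −0.77 and its adjusted p was 0.0523 by limma.

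H2-Eb1, the I-E beta chain, was the lowest of the 3 chains in all 12 libraries and fell in each drug comparison. In M-MDSCs it was at 9.54 and 9.21 FPKM under Vehicle, 2.88 and 4.38 under MS275 and 6.69 and 4.42 under CXD101. The PMN-MDSC libraries were at 42.8 and 27.6, 9.54 and 6.93, and 12.6 and 12.2, respectively. In every drug comparison both treated libraries lay below both Vehicle libraries of the subset. H2-Eb1 fell by 1.18 ± 0.19 under MS275 in M-MDSCs and by 1.95 ± 0.21 under MS275 and 1.4 ± 0.21 under CXD101 in PMN-MDSCs on the log2 scale (limma, adjusted p = 0.00160, 0.000181 and 0.00126). Under CXD101 in M-MDSCs the value was −0.68 ± 0.19 (limma, adjusted p = 0.0369), and this call was lost without M CXD101 replicate 2 (−0.43), M Vehicle replicate 1 (−0.66) or M Vehicle replicate 2 (−0.71). H2-Ea-ps, the symbol of the I-E alpha locus in the files, was listed at 0 in all 12 libraries.

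The subsets differed in their response to MS275 for the I-A chains. The change of H2-Aa under MS275 was more negative in PMN-MDSCs than in M-MDSCs by −1.49 ± 0.28 on the log2 scale, and that of H2-Ab1 by −1.05 ± 0.23 (limma, adjusted p = 0.00274 and 0.00609). For CXD101 the same differences were −0.47 (95% interval −1.09 to 0.14) and −0.04 (−0.54 to 0.46), and neither passed. For H2-Eb1 they were −0.77 and −0.72, with adjusted p = 0.103 and 0.142 by limma. Without PMN Vehicle replicate 2, H2-Eb1 passed for both drugs (−1.08 and −1.02), and without M CXD101 replicate 2, H2-Aa passed for CXD101 (−0.79).

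Cd74, the invariant chain, was the most abundant of the 10 genes per kilobase in all 12 libraries and fell under both drugs in both subsets. In M-MDSCs it was at 161 and 148 FPKM under Vehicle, 54.0 and 59.3 under MS275 and 56.1 and 47.2 under CXD101. Cd74 stood at 440 and 353 FPKM under Vehicle, 159 and 161 under MS275 and 179 and 165 under CXD101 in PMN-MDSCs. Neither drug group overlapped with Vehicle, and the treated PMN-MDSC libraries lay near those of Vehicle M-MDSCs. The log2 fold changes were −1.43 ± 0.09 under MS275 and −1.57 ± 0.09 under CXD101 in M-MDSCs, and −1.30 ± 0.10 and −1.19 ± 0.10 in PMN-MDSCs (limma, adjusted p = 1.53e-05, 3.86e-05, 4.92e-05 and 0.000115). The drugs did not differ past the threshold, with MS275 minus CXD101 at 0.13 (95% interval −0.08 to 0.34) in M-MDSCs and −0.10 (−0.34 to 0.13) in PMN-MDSCs. The difference between the subsets in response was 0.14 (−0.20 to 0.48) for MS275 and 0.38 (0.04 to 0.72, adjusted p = 0.102 by limma) for CXD101.

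Less Cd74 stood beside each unit of H2-Ab1 in treated M-MDSCs than in those of Vehicle mice. The FPKM ratio of Cd74 to H2-Ab1 was 7.17 and 6.42 in the M Vehicle libraries, 2.27 and 2.54 under MS275 and 4.504 and 3.56 under CXD101. In PMN-MDSCs the ratio was 5.47 and 7.06 under Vehicle, 5.09 and 5.16 under MS275 and 5.21 and 4.49 under CXD101. The 3 M-MDSC groups did not overlap in this ratio, which is a description and carries no test.

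Ciita, the class II transactivator, was the lowest of the set per kilobase in all 12 libraries. It was at 0.767 and 0.9997 FPKM under Vehicle, 0.278 and 0.250 under MS275 and 0.341 and 0.629 under CXD101 in M-MDSCs. These values correspond to about 12.6 reads in the lowest library, and Ciita did not reach the minimum for a test in M-MDSCs. All 4 treated libraries lay below both Vehicle libraries. In PMN-MDSCs, Ciita was at 3.57 and 2.54 under Vehicle, 0.395 and 0.399 under MS275 and 0.956 and 1.17 under CXD101, and the 3 groups did not overlap. In this subset, Ciita reached the minimum through the Vehicle libraries and 1 CXD101 library, and its calls are among the 7 and 5 given above. Entry by this route favours a call in the lower direction, so the fall of Ciita is given as a description. Ciita fell by 1.53 ± 0.18 under MS275 and by 0.97 ± 0.18 under CXD101 on the log2(FPKM + 1) scale, which understates the change of a gene this low (limma, adjusted p = 0.000292 and 0.00353). In the model of all 12 libraries, which Ciita entered through PMN-MDSC libraries alone, the difference in response to MS275 was −0.95 ± 0.23 (limma, adjusted p = 0.0107). With all M-MDSC libraries under the minimum, this value depends on the pseudocount, and the call was lost with a pseudocount of 0.1 (−1.22, adjusted p = 0.0812 by limma). For CXD101 the difference was −0.62 ± 0.23 (limma, adjusted p = 0.0753), and it passed without PMN Vehicle replicate 2 (−0.81). Neither difference is read as a difference between the subsets.

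None of the listed factors that bind the X and Y boxes passed the test under either drug. Of the 7 listed genes of this kind (Rfx5, Rfxap and Rfxank of the RFX complex, Nfya, Nfyb and Nfyc of NF-Y, and Creb1), 7 were tested and 0 were called against Vehicle with limma in either subset. At an unadjusted p under 0.05, 3 of them were lower under MS275 and 1 higher under CXD101 in M-MDSCs, and 1 was lower under each drug in PMN-MDSCs. Among all genes in M-MDSCs, 10.1% and 7.32% were called higher and lower under MS275, and 5.14% and 3.0% under CXD101. In PMN-MDSCs these shares were 14.6% and 14.2% under MS275, and 11.9% and 9.54% under CXD101. Beside them, 0 of 7 is not read as a result about these factors. Rfx5 had a mean of 4.17 FPKM in M Vehicle, 4.53 in M MS275 and 4.601 in M CXD101, and of 4.35, 4.30 and 4.61 in the PMN groups. Among regulators upstream of Ciita, Irf8, a factor of monocyte and dendritic cell development, fell in PMN-MDSCs under MS275 by 1.03 ± 0.16 on the log2 scale (limma, adjusted p = 0.00132), from 16.5 and 11.2 FPKM to 5.99 and 6.33. In M-MDSCs, Irf8 had means of 35.5, 36.9 and 38.0 FPKM in the 3 groups. Socs1, an inhibitor of interferon signaling, rose under MS275 by 0.78 ± 0.16 in M-MDSCs and 1.19 ± 0.08 in PMN-MDSCs, and under CXD101 by 0.85 ± 0.08 in PMN-MDSCs (limma, adjusted p = 0.00541, 2.42e-05 and 0.000172). Ifngr2, a chain of the interferon-gamma receptor, fell under MS275 in M-MDSCs by 0.72 ± 0.07 (limma, adjusted p = 0.000130).

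**Figure D2:**
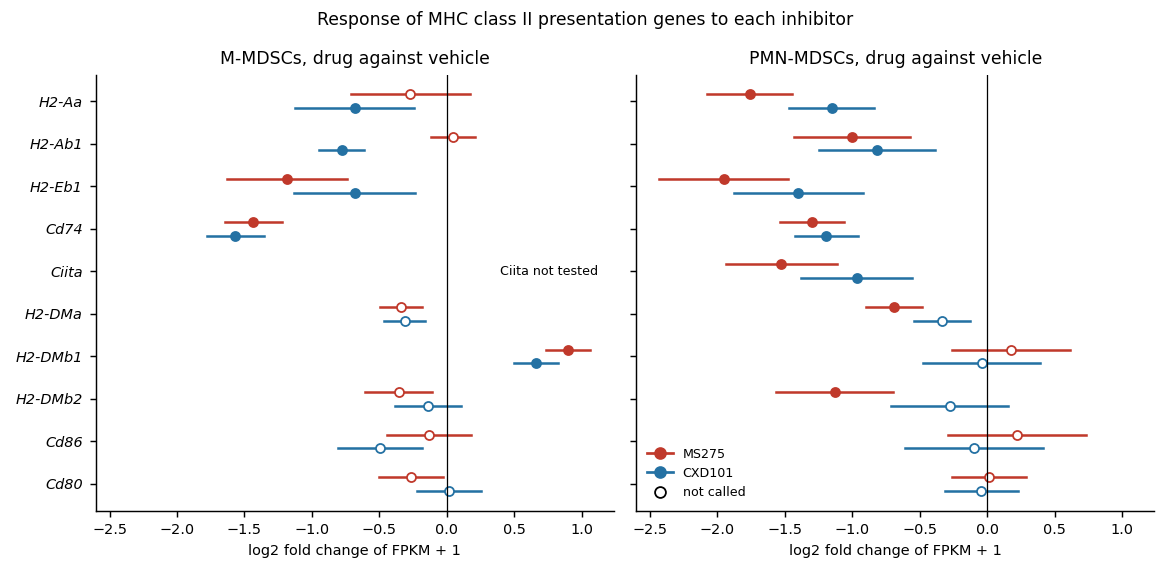
log2 fold change of FPKM + 1 (x axis) for each drug against Vehicle in M-MDSCs and PMN-MDSCs, with 95% intervals from limma. Filled points passed both thresholds, and open points did not. H2-DMb1 is the only gene above 0 that was called, in M-MDSCs, and H2-Ab1 is near 0 under MS275 in M-MDSCs.

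Of the chains of H2-DM, H2-DMa and H2-DMb2 fell under MS275 in PMN-MDSCs and H2-DMb1 rose in M-MDSCs. H2-DMa, the common alpha chain, was at 58.7 and 59.5 FPKM under Vehicle, 48.7 and 44.4 under MS275 and 48.3 and 46.6 under CXD101 in M-MDSCs. In PMN-MDSCs it was at 63.5 and 55.7, 36.6 and 36.4, and 49.7 and 44.2, respectively. All treated libraries lay below the Vehicle libraries of their subset, but the size of the change passed 1.5-fold only under MS275 in PMN-MDSCs (−0.69 ± 0.09, adjusted p = 0.000500 by limma). The other log2 fold changes of H2-DMa were −0.34, −0.31 and −0.34, for MS275 and CXD101 in M-MDSCs and CXD101 in PMN-MDSCs, with adjusted p = 0.00375, 0.0121 and 0.0177 by limma.

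H2-DMb1 rose in M-MDSCs under both drugs. It was at 22.2 and 23.1 FPKM under Vehicle, 44.8 and 41.6 under MS275 and 35.1 and 37.6 under CXD101, so that the 3 groups did not overlap. The log2 fold change was 0.90 ± 0.07 under MS275 and 0.66 ± 0.07 under CXD101 (limma, adjusted p = 4.11e-05 and 0.000626), and these calls held when any library was left out. In PMN-MDSCs, H2-DMb1 was at 27.8 and 18.6 under Vehicle, 28.3 and 23.6 under MS275 and 24.6 and 19.8 under CXD101. All 3 PMN groups overlapped, with changes of 0.18 (95% interval −0.26 to 0.61) and −0.04 (−0.48 to 0.40). The difference between the subsets was −0.72 ± 0.23 for MS275 and −0.70 ± 0.23 for CXD101 (limma, adjusted p = 0.0351 and 0.0472). For MS275 the call was lost without PMN Vehicle replicate 1 (−0.45), PMN MS275 replicate 2 (−0.60), M Vehicle replicate 1 or 2 (−0.69 and −0.75) or M MS275 replicate 1 or 2 (−0.67 and −0.78). For CXD101 it was lost without PMN Vehicle replicate 1 (−0.42), PMN CXD101 replicate 2 (−0.55) or any 1 of the 6 M-MDSC libraries (−0.75 to −0.65). Both were also lost without the filter on low values and without the intensity trend.

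H2-DMb2, whose transcript is 94.6% identical to that of H2-DMb1 where they align, took a different course. It was at 11.6 and 12.4 FPKM under Vehicle, 9.15 and 9.14 under MS275 and 11.98 and 9.69 under CXD101 in M-MDSCs. In PMN-MDSCs it was at 28.5 and 18.01 under Vehicle, 10.5 and 9.13 under MS275 and 18.2 and 18.9 under CXD101. Both MS275 libraries of PMN-MDSCs lay below the other 4, and H2-DMb2 fell there by 1.13 ± 0.19 on the log2 scale (limma, adjusted p = 0.00162). The other changes were −0.36 (MS275 in M-MDSCs, adjusted p = 0.0261 by limma), −0.14 (CXD101 in M-MDSCs) and −0.28 (CXD101 in PMN-MDSCs), none past both thresholds. Without PMN Vehicle replicate 2, the last was −0.59 and passed. In PMN-MDSCs, MS275 minus CXD101 was −0.85 ± 0.19, with adjusted p = 0.0895 by limma in the model of all 6 libraries and 0.0140 with only the 4 libraries compared. The subsets differed in response to MS275 by −0.78 ± 0.24 (limma, adjusted p = 0.0338), a call lost without PMN Vehicle replicate 1 (−0.46), PMN MS275 replicate 2 (−0.68), M Vehicle replicate 1 or 2 (−0.73 and −0.82) or M MS275 replicate 1 or 2 (−0.77 and −0.78).

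Read sharing limits these values. Of the windows of read length in the H2-DMb1 transcript, 13.5% occurred letter for letter in H2-DMb2 transcripts, and 12.7% the other way, so part of the reads of either gene could have been counted for the other. The ratio of H2-DMb1 to H2-DMb2 was 1.92 and 1.86 in M Vehicle, 4.89 and 4.55 in M MS275 and 2.93 and 3.89 in M CXD101. In PMN-MDSCs it was 0.974 and 1.03 under Vehicle, 2.69 and 2.59 under MS275 and 1.35 and 1.05 under CXD101. The ratio was thus higher in both MS275 libraries than in all other libraries of the same subset.

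H2-Oa, a chain of the H2-DM modulator H2-DO, rose under both drugs in both subsets. This alpha chain was at 5.40 and 6.21 FPKM under Vehicle, 18.2 and 19.8 under MS275 and 11.9 and 15.9 under CXD101 in M-MDSCs. In PMN-MDSCs, H2-Oa was at 3.45 and 4.37 under Vehicle, 36.4 and 37.5 under MS275 and 31.1 and 33.0 under CXD101. The treated libraries were above the Vehicle libraries in both subsets, and the PMN-MDSC groups did not overlap with each other. The log2 fold change of H2-Oa was 1.56 ± 0.13 and 1.12 ± 0.13 in M-MDSCs and 2.96 ± 0.11 and 2.76 ± 0.11 in PMN-MDSCs for MS275 and CXD101 (limma, adjusted p = 5.73e-05, 0.000878, 2.32e-06 and 4.34e-06). The rise was larger in PMN-MDSCs by 1.399 ± 0.19 for MS275 and 1.64 ± 0.19 for CXD101 (limma, adjusted p = 0.000399 and 0.000260). H2-Ob, the beta chain, was lower, at 0.309 and 0.201 FPKM in M Vehicle, 1.92 and 2.38 in M MS275 and 1.02 and 0.709 in M CXD101. In PMN-MDSCs H2-Ob was at 0.911 and 0.843, 3.97 and 4.27, and 2.32 and 2.91, respectively. In both subsets H2-Ob was below 1 FPKM under Vehicle and entered the test only through treated libraries, so its levels are given as a description. All treated libraries lay above the Vehicle libraries of their subset. The ratio of H2-Oa to H2-DMa in PMN-MDSCs was 0.0544 and 0.0784 under Vehicle and 0.994 and 1.03 under MS275.

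**Figure D3:**
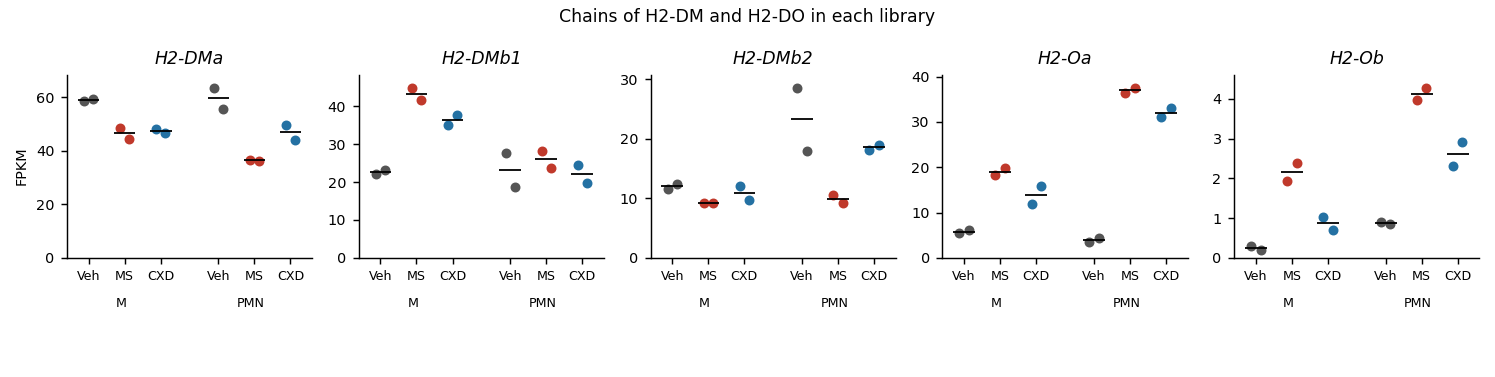
FPKM (y axis, linear, from 0) of the chains of H2-DM (H2-DMa, H2-DMb1, H2-DMb2) and H2-DO (H2-Oa, H2-Ob) under Vehicle (Veh), MS275 (MS) and CXD101 (CXD) in M-MDSCs (M) and PMN-MDSCs (PMN). Points are libraries, 2 per group, and bars are means. H2-Oa is at 3.45 and 4.37 in PMN Vehicle and at 31.1 to 37.5 in the treated PMN libraries.

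No drug comparison with Vehicle passed both thresholds for Cd80 or Cd86. Cd80 was at 12.5 and 13.1 FPKM under Vehicle, 9.44 and 11.6 under MS275 and 13.04 and 12.9 under CXD101 in M-MDSCs. In PMN-MDSCs, Cd80 was at 21.7 and 25.6, 26.1 and 21.7, and 22.04 and 23.7, respectively. For Cd80 the changes were −0.26 (95% interval −0.50 to −0.03) and 0.02 (−0.22 to 0.26) in M-MDSCs and 0.01 (−0.26 to 0.29) and −0.04 (−0.31 to 0.23) in PMN-MDSCs for MS275 and CXD101. Cd86 was at 4.48 and 4.42 under Vehicle, 4.24 and 3.73 under MS275 and 3.33 and 2.47 under CXD101 in M-MDSCs. In PMN-MDSCs, Cd86 was at 3.99 and 6.18, 5.93 and 6.05, and 3.64 and 5.76, respectively, and the Vehicle group overlapped with both treated groups. Under CXD101 in M-MDSCs both libraries were below the others, and the change of Cd86 was −0.49 ± 0.14 (limma, adjusted p = 0.0329), smaller than 1.5-fold. It passed both thresholds with a pseudocount of 0.1 (−0.62) or without M CXD101 replicate 1 (−0.65). In PMN-MDSCs the changes of Cd86 were 0.22 (95% interval −0.29 to 0.74) and −0.10 (−0.61 to 0.42).

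Under Vehicle, PMN-MDSCs held more of most class II transcripts than M-MDSCs. The difference was 1.60 ± 0.20 on the log2 scale for H2-Aa, 1.44 ± 0.16 for H2-Ab1, 1.77 ± 0.23 for H2-Eb1 and 1.34 ± 0.11 for Cd74 (limma, adjusted p = 3.90e-05, 1.89e-05, 6.59e-05 and 1.70e-06). It was 1.10 ± 0.16 for Ciita, 0.87 ± 0.17 for H2-DMb2 and 0.83 ± 0.12 for Cd80 (limma, adjusted p = 0.000163, 0.00120 and 0.000109). Ciita again entered through PMN-MDSC libraries alone, which favours a call in this direction, so its difference is given as a description. For these genes both PMN Vehicle libraries lay above both M Vehicle libraries. H2-DMa, H2-DMb1 and Cd86 did not pass, at 0.01 (95% interval −0.17 to 0.19), 0.01 (−0.35 to 0.36) and 0.14 (−0.31 to 0.58). The H2-DMb2 value fell to 0.55 without PMN Vehicle replicate 1 and was then no longer called. The PMN Vehicle group held the highest mean of 7 genes of the set, the exceptions being H2-DMb1, highest in M MS275, and Cd86 and Cd80, highest in PMN MS275. Its libraries overlapped with the next group for H2-DMa (M Vehicle) and H2-DMb2 (PMN CXD101). For H2-Aa, H2-Ab1, H2-Eb1, Cd74 and Ciita, PMN CXD101 came next and both PMN Vehicle libraries lay above it. Among lower groups, neighbours often overlapped. For H2-Aa these were M Vehicle, PMN MS275, M MS275 and M CXD101, and for Cd74 PMN MS275 with M Vehicle and M MS275 with M CXD101.

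Other genes of the pathway were taken from a list of 35, of which 31 were tested in M-MDSCs and 32 in PMN-MDSCs. In M-MDSCs, 4 rose and 3 fell under MS275 and 1 rose and 1 fell under CXD101, and in PMN-MDSCs 3 rose and 6 fell under MS275 and 3 rose and 5 fell under CXD101. Among all genes, the shares called higher and lower were 10.1% and 7.32% for MS275 and 5.14% and 3.0% for CXD101 in M-MDSCs, and 14.6% and 14.2% and 11.9% and 9.54% in PMN-MDSCs (MS275 and CXD101). The counts that rose include H2-Ob and, in M-MDSCs, Pdcd1lg2, which entered the test only through treated libraries, and nothing particular to the list is read from these counts. Of the 5 genes of antigen and invariant chain processing, none rose against Vehicle. Ctss, the protease that removes the last part of the invariant chain, was at 386 and 391 FPKM under Vehicle, 189 and 184 under MS275 and 259 and 267 under CXD101 in M-MDSCs, and at 403 and 398, 144 and 143, and 189 and 187 in PMN-MDSCs. Ctss fell by 1.05 ± 0.05 under MS275 in M-MDSCs, and by 1.48 ± 0.05 and 1.09 ± 0.05 under MS275 and CXD101 in PMN-MDSCs (limma, adjusted p = 4.49e-06, 2.32e-06 and 1.03e-05). Ifi30, a thiol reductase that unfolds antigens, fell in M-MDSCs by 0.67 ± 0.06 and 0.61 ± 0.06 under MS275 and CXD101. Lgmn, an endopeptidase, fell in PMN-MDSCs by 1.499 ± 0.11 and 1.46 ± 0.11, from 88.0 and 73.4 FPKM to between 26.7 and 30.8.

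Of the 3 listed genes of surface turnover, 2 fell under MS275 and 1 under CXD101 in PMN-MDSCs, and of the 2 ligands and partners of CD74, 1 fell under either drug. Among all genes tested there, 14.2% and 9.54% were called lower under MS275 and CXD101, and no theme is read from lists this short. Cd83, which stabilizes class II at the surface, was at 5.57 and 4.97 FPKM under Vehicle and 1.59 to 2.23 in the treated PMN libraries. It fell by 1.09 ± 0.16 and 1.18 ± 0.16 under MS275 and CXD101 (limma, adjusted p = 0.000756 and 0.000742). March1 (Marchf1), a ubiquitin ligase of class II, fell under MS275 by 0.61 ± 0.10 (limma, adjusted p = 0.00135). Mif, a ligand of CD74, fell by 1.44 ± 0.12 and 1.18 ± 0.12 under MS275 and CXD101 (limma, adjusted p = 5.60e-05 and 0.000226). Of the inhibitory ligands, Cd274 (PD-L1) fell in PMN-MDSCs under CXD101 by 0.66 ± 0.08, with adjusted p = 0.000437 by limma. Pdcd1lg2 (PD-L2) entered the test in M-MDSCs only through treated libraries, and was at 0.622 and 0.742 FPKM under Vehicle, 2.01 and 2.37 under MS275 and 1.12 and 0.993 under CXD101. Between the drugs, 4 of 31 were higher under MS275 than under CXD101 in M-MDSCs, where 3.22% of all genes were. They were H2-Ob and Pdcd1lg2, subject to the same limit, and Socs1 and Ctsl, higher by 0.73 and 0.65 on the log2 scale. In PMN-MDSCs, 0 of 32 genes were called (4 higher and 3 lower at an unadjusted limma p under 0.05). Under Vehicle, 12 of the 32 were higher and 2 lower in PMN-MDSCs than in M-MDSCs, against 17.2% and 16.8% of all genes. The higher ones were Irf1, Ifngr1, Jak1, Jak2, Socs1, Lgmn, March1, Cd83, Cd44, Icosl, Cd274 and Pdcd1lg2, and the lower ones Irf8 and Ifi30. The response to MS275 differed between the subsets for 11 of the 32, 6 higher and 5 lower, where 8.65% and 9.48% of all genes were. Among them were H2-Oa, Rfxap, Ifngr2, Jak2 and Icosl, whose response was higher in PMN-MDSCs, and Irf8, Lgmn, Cd83, Mif and Cd274, whose response was lower. For CXD101 it was higher for H2-Oa, Jak2, Socs1 and Icosl and lower for Lgmn, Cd83 and Mif, against 7.31% and 6.59% of all genes. Cd83 was at 0.312 to 0.933 FPKM in M-MDSCs, so it entered the model of all 12 libraries through PMN-MDSC libraries alone. Its calls under Vehicle and in the responses to both drugs are thus not read as differences between the subsets.

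The tested dendritic cell markers and 4 or more of the 8 macrophage markers fell in each drug comparison. Under MS275 in M-MDSCs, H2-Eb1 and Cd74 were called lower (−1.18 and −1.43 on the log2 scale). H2-Aa and H2-Ab1 were not called there (−0.27 and 0.05). Of the 9 dendritic cell markers, 3 reached the minimum for a test in M-MDSCs and 4 in PMN-MDSCs, and these fell under either drug. In M-MDSCs, Ccr7 reached the minimum in both Vehicle libraries and in neither MS275 library. For a marker this low, such an entry favours a lower call. That all tested dendritic cell markers fell is thus given as a description. Of the 8 macrophage markers, 5 and 4 fell in M-MDSCs and 6 and 6 in PMN-MDSCs under MS275 and CXD101. Among all genes tested, 7.32% and 3.0% were called lower in M-MDSCs and 14.2% and 9.54% in PMN-MDSCs. Apoe, an apolipoprotein of macrophages, went the other way, rising in PMN-MDSCs under MS275 by 1.61 ± 0.15 on the log2 scale (limma, adjusted p = 0.000106). Its other values were 0.50 under CXD101 in PMN-MDSCs and 0.54 and 0.51 under MS275 and CXD101 in M-MDSCs, under the fold threshold. The 9 dendritic cell markers summed to 26.8 and 31.9 FPKM in M Vehicle and 7.99 to 14.4 in treated M-MDSCs, and to 64.4 and 72.5 in PMN Vehicle and 16.04 to 18.9 in treated PMN-MDSCs. Itgax, the CD11c gene, made up much of the sum, at 46.2 and 42.0 FPKM in PMN Vehicle and 8.52 to 10.02 in treated PMN-MDSCs. Flt3, a receptor of dendritic cell development, was at 0.535 FPKM or less in all libraries. C1qb, a complement gene of macrophages, went from 23.7 and 18.8 FPKM in PMN Vehicle to 0.608 and 0.288 under MS275 and 3.93 and 1.79 under CXD101.
Neutrophil markers moved the other way, 5 of 6 tested rising under either drug in either subset. Their sum was 68110 and 93742 FPKM in PMN Vehicle and 234492 to 268440 in treated PMN-MDSCs. B cell markers summed to 6.81 and 7.57 FPKM in M Vehicle and 9.57 to 14.4 in treated M-MDSCs, and to 6.87 and 9.30 in PMN Vehicle and 6.27 to 8.44 in treated PMN-MDSCs. Cd79b, a chain of the B cell receptor, rose by 0.83 ± 0.12 under CXD101 in M-MDSCs and by 0.79 ± 0.16 and 0.87 ± 0.16 under MS275 and CXD101 in PMN-MDSCs (limma, adjusted p = 0.00252, 0.00408 and 0.00336), while 2 other B cell markers fell under MS275 in PMN-MDSCs. Eosinophil markers summed to 10.2 and 14.9 in M Vehicle and 112 to 163 in treated M-MDSCs. T and NK cell markers summed to 0 to 3.33 and hepatocyte and tumor markers to 1.04 to 2.29. In bulk libraries, fewer cells of a type and less RNA per cell cannot be told apart, and the part of these marker changes in the class II results was not tested.

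**Figure D4:**
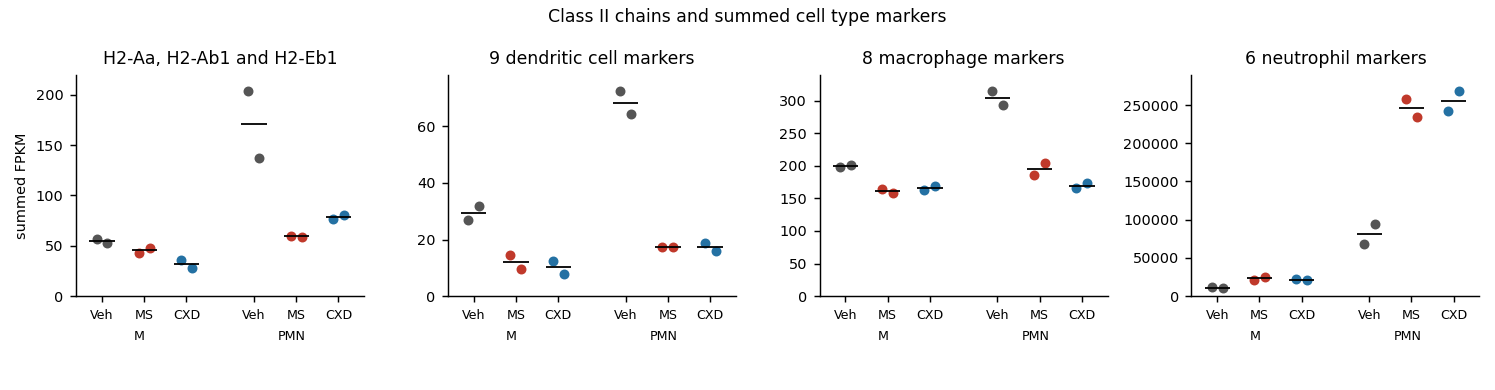
Summed FPKM (y axes, linear, from 0) of the class II chains H2-Aa, H2-Ab1 and H2-Eb1, of 9 dendritic cell, 8 macrophage and 6 neutrophil markers in each library, under Vehicle (Veh), MS275 (MS) and CXD101 (CXD) in M-MDSCs (M) and PMN-MDSCs (PMN). Points are libraries and bars are means. The class II chains, dendritic cell and macrophage sums are highest in PMN Vehicle, and the neutrophil sum is highest in the treated PMN-MDSCs.

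The genes with the most similar profiles over the 12 libraries were named by the smallest root mean square difference of centred log2(FPKM + 1) among 11662 genes. For the mean of H2-Aa, H2-Ab1, H2-Eb1 and Cd74 these were Rgl1, Clec4n, Atf3, Cd83 and Ccr7, with differences of 0.233, 0.238, 0.248, 0.250 and 0.253, where the median gene differed by 0.885. Clec4n, a C-type lectin receptor (dectin-2), was at 882 and 863 FPKM in PMN Vehicle, 322 to 344 in treated PMN-MDSCs and 138 to 226 in M-MDSCs. Ccr7, the chemokine receptor that guides dendritic cells to lymph nodes, was at 9.77 and 8.28 FPKM in PMN Vehicle and at 2.14 to 3.05 in treated PMN-MDSCs. For Ciita the nearest were Slc37a2, Slamf7, Cstb, Rgag4 and Bcar3, with differences of 0.147, 0.173, 0.186, 0.197 and 0.200 (median gene, 0.676). For Cd86 they were Rb1, Pik3c2a, Gnai3, Dock11 and G630090E17Rik, with differences of 0.161, 0.163, 0.166, 0.168 and 0.172 (median gene, 0.471). The spread of Cd86 itself over the libraries was 0.311 on the same measure. The 12 libraries share their groups, so this likeness is a description of 6 group levels.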

How the data were processed

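RNA-seq of sorted M-MDSCs and PMN-MDSCs was used, with 2 libraries in each of 6 groups taken from the submitters' labels. Each library came as a table that the authors deposited, in FPKM, with 1 value for each gene symbol. The submitters' processing notes name TopHat2 2.1.1, Bowtie2 2.2.8, SAMtools 0.1.18, Cuffdiff 2.2.1 and mm10. The annotation and the use of strand in counting are not given in the sources used here, and libraries were made with a stranded poly(A) kit. No counts were used, so the depth is an estimate and no interval was derived from it. RNA was extracted with miRNeasy Micro per the labels and miRNeasy Mini per the study's methods.

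No scaling was added. limma 3.58.1 in R 4.3.3 was fitted to log2(FPKM + 1) with an intensity trend, in 1 model for the 6 libraries of a subset and in 1 model of all 12 libraries for Vehicle against Vehicle and for differences in response. A gene entered a model if 2 or more of its libraries reached an FPKM of 1, and Benjamini-Hochberg adjustment ran over all genes of a model. Errors are standard errors and intervals are 95%. The p-values rest on the spread between the 2 libraries of a group. This spread was pooled over all groups of a model and moderated by limma over all genes. The thresholds were those of the study. The procedure was tested on simulated data. Coordinates and transcript lengths were taken from GENCODE vM21 and promoters from RefSeq, both on GRCm38, which is mm10. Python 3.11.15, pandas 2.3.3, numpy 2.4.6 and Biopython 1.88 served for other steps.

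The members, gene lists, tests and alternatives were chosen with earlier results of these data known. All 10 members are named. Of the pathway list and the marker lists, the genes past the thresholds or at defining levels are named, and for 3 profiles the 5 most similar genes. In the pathway list, 3 symbols matched through an older name, and Ly6g was not analysed here. Alternatives covered the pseudocount, the filter, the scaling, the intensity trend, the libraries in the model, the fold threshold, a replicate block and each library left out.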

Additional observations from a re-analysis of the deposited data

Results flagged for a closer look

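The difference in response itself was tested (PMN-MDSC response minus M-MDSC response, log2 scale, limma). For MS275, 5 of the 10 genes were called lower, where 9.48% of all genes were. They were Ciita at −0.95, H2-Aa at −1.49, H2-Ab1 at −1.05, H2-DMb1 at −0.72 and H2-DMb2 at −0.78. Ciita is not comparable with the other 4, since all its M-MDSC libraries lay under the minimum for a test, it entered through PMN-MDSC libraries alone, and its call was lost with a pseudocount of 0.1 (adjusted p = 0.0812 by limma). The Ciita call is not read as a difference between the subsets. Under Vehicle, the PMN-MDSC level of H2-Aa, H2-Ab1, Ciita and H2-DMb2 was the higher one, and that of H2-DMb1 differed by 0.01. For CXD101, H2-DMb1 differed between the subsets at −0.70. The adjusted p-values of the H2-DMb1 and H2-DMb2 differences lay between 0.0338 and 0.0472 by limma, and leaving out PMN Vehicle replicate 1 moved them to −0.45, −0.46 and −0.42 for H2-DMb1 and H2-DMb2 under MS275 and H2-DMb1 under CXD101, none of them called. With 2 libraries per group, no library was tested for standing apart.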

How the results depend on the processing

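Of 34 calls, 19 held under every alternative and 0 changed direction. Counts of called genes that moved were as follows. With a fold change above 2, those called higher were 0 for each drug against Vehicle and for MS275 against CXD101 in M-MDSCs, and those called lower were 1 for CXD101 in M-MDSCs, 3 for CXD101 in PMN-MDSCs, and 2 and 0 for the differences in response to MS275 and CXD101. With adjusted p only, 4 were lower for MS275 in M-MDSCs. Without the filter on low values, 2 were lower for CXD101 in M-MDSCs, and 3 and 0 for the differences in response to MS275 and CXD101. Without the intensity trend, 2 were lower for CXD101 in M-MDSCs. With a pseudocount of 0.1, 0 were lower for the difference in response to CXD101. Between the drugs in PMN-MDSCs, 1 was lower with all 12 libraries in one model and 2 with only the 4 libraries compared. Leaving out each library in turn gave 1 to 2 higher for MS275 against CXD101 in M-MDSCs, 2 to 5 lower for CXD101 in M-MDSCs, 0 to 2 lower between the drugs in PMN-MDSCs, and 3 to 6 and 0 to 3 lower for the differences in response to MS275 and CXD101; with a lone library in an arm, its spread is assumed to be that of the other groups.

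Of the 53 uncalled values, some near 0 changed sign. Under quantile normalization Cd80 and H2-DMb1 became 0.0106 and 0.0108 for CXD101 in PMN-MDSCs, H2-DMa became 0.0390 between the drugs in M-MDSCs (0.00213 with median-of-ratios scaling), and H2-DMa and H2-DMb1 became −0.0180 and −0.0316 between the subsets under Vehicle. With each library left out, Cd80 ranged from −0.00858 to 0.0478 for CXD101 in M-MDSCs, −0.157 to 0.0724 for CXD101, −0.116 to 0.141 for MS275 and −0.0732 to 0.183 between the drugs in PMN-MDSCs, and −0.177 to 0.0528 in the difference in response to CXD101. Cd86 ranged from −0.367 to 0.176 for CXD101 and −0.0392 to 0.485 for MS275 in PMN-MDSCs, and −0.126 to 0.398 between the subsets. H2-DMa ranged from −0.0915 to 0.0373 between the drugs in M-MDSCs, −0.0832 to 0.102 between the subsets and −0.118 to 0.0674 in the difference in response to CXD101. H2-DMb1 ranged from −0.318 to 0.236 for CXD101 and −0.0992 to 0.455 for MS275 in PMN-MDSCs and −0.272 to 0.282 between the subsets. H2-DMb2 ranged from −0.595 to 0.0393 for CXD101 in PMN-MDSCs and −0.454 to 0.180 in the difference in response to CXD101, where H2-Ab1 ranged from −0.376 to 0.299. Cd74 ranged from −0.0203 to 0.296 in the difference in response to MS275. The cause was not tested.

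Libraries of the same replicate number shared only a number by the labels. Their deviations from the group means correlated at −0.12 to 0.07 between groups of a subset and −0.13 to 0.18 over all 15 pairs of groups. With the replicate block, the call of H2-Eb1 for CXD101 in M-MDSCs was lost (−0.68, adjusted p = 0.0531 by limma) and no other call changed; the count over all genes in that comparison was 571 higher and 330 lower. The lowest genes rest on few reads, about 12.6 to 174.7 for Ciita.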
